A study of Rattus norvegicus with 12 samples.

Results

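The superficial zone (SZ) of articular cartilage was compared with the growth plate's resting zone (RZ) in the proximal tibial epiphysis of the rat. The comparison used 8 of the 12 arrays of the series, 4 of SZ and 4 of RZ, and covered 14300 genes, each a transcript cluster that carried a single gene symbol (the brightest cluster where a symbol had several). All animals were Sprague-Dawley rats aged 10 days, no animal was treated or genetically altered, and their sex was not given in the sources used here. Each SZ array held RNA from both tibias of 1 animal (animals 5, 6, 7 and 8), whereas each RZ array held RNA pooled from the tibias of 2 animals, so that RZ arrays 3 and 4 came from the animals that also gave SZ. The other 4 arrays, from the layer of articular cartilage under SZ, the intermediate/deep zone (IDZ), were pooled from the same pairs of animals as RZ. The zones were cut by hand from eosin-stained sections of the epiphysis, and tissue between neighboring zones was discarded. The IDZ arrays entered the fit only for its estimate of the spread, and their levels are given for orientation.

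SZ is the thin layer of flattened chondrocytes that faces the joint cavity and makes lubricin, the glycoprotein that keeps the joint surface slippery. RZ lies under the secondary ossification center and holds slowly dividing chondrocytes, singly or in small groups, that supply the columns of the growth plate. Both layers come from the same cartilage anlage, and both are known to hold progenitor cells. Signals that set the pace of chondrocyte proliferation and enlargement (Indian hedgehog, parathyroid hormone-related protein, bone morphogenetic proteins (BMPs), Wnts, fibroblast growth factors (FGFs) and insulin-like growth factors (IGFs)) act in the growth plate, and several of them also act in joint formation.

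Values are log2 signals, so that a difference of 1 is a 2-fold difference. Levels are given as mean ± SD over the arrays of a zone (n = 4), and differences as the limma estimate ± its standard error. Adjusted p-values are limma's, two-sided, after Benjamini-Hochberg adjustment over all clusters. The arrays are separate tissue samples, but SZ and RZ share 4 animals. The median SD per gene was 0.232 in SZ, with 1 animal per array, and 0.113 in RZ and IDZ, with 2 per array. The part of pooling in that difference was not tested. SZ array 4 stood apart from the other SZ arrays. Its values had the narrowest interquartile range of the 12 arrays (2.24 log2 units, against 2.57 to 2.73 in RZ), the highest median (6.90), the lowest mean correlation with its own zone (0.973) and a weight of 0.119 when arrays were weighted by their residuals. It had the lowest of the SZ values for 569 of the 703 genes called higher in SZ and for 145 of the 250 called higher in RZ. Every sample is a mixture of cells, and fewer cells of a type and less RNA per cell cannot be told apart.

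The zone labels were checked with the 12 genes that the study used as zone markers. Those genes were chosen by the study, in part on these arrays, and Prg4 and Col10a1 staining guided the dissection, so their directions are no independent evidence. Prg4, which encodes lubricin, read 12.53, 12.90, 12.97 and 12.72 in the SZ arrays and 5.24, 6.40, 5.57 and 5.53 in the RZ arrays. Sfrp5, a secreted Wnt antagonist of the resting zone, read 8.50, 8.50, 8.53 and 8.56 in SZ and 12.33, 12.25, 11.99 and 12.12 in RZ. The separation was complete for both. Bmp3 and Sfrp5 were higher in RZ by 3.74 ± 0.17 and 3.65 ± 0.17, and Grem1, a BMP antagonist, by 0.95 ± 0.19. Mmp13, Mmp9, Adamts1 and Olfml3 were higher in SZ by 3.03 ± 0.49, 2.62 ± 0.42, 1.96 ± 0.16 and 0.81 ± 0.10. Col10a1, the collagen of hypertrophic chondrocytes, was 8.30 ± 0.45 in RZ and 6.99 ± 0.38 in SZ, and Alpl, the alkaline phosphatase of mineralizing cartilage, was 10.30 ± 0.17 in RZ and 8.71 ± 0.12 in SZ. In all, 5 of the 12 were higher in SZ and 6 in RZ. Gdf10 did not pass the test (8.92 ± 0.26 in SZ and 8.45 ± 0.42 in RZ), and Prelp was higher in RZ by 0.40 ± 0.11. Prelp no longer passed after cyclic loess scaling, after a further quantile normalization, without RZ array 2 or with RZ arrays 3 and 4 alone. Under each of these alternatives Gdf10 did pass, toward SZ, as it also did without SZ array 4.

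At an adjusted p under 0.05 and at least 2-fold, SZ exceeded RZ for 703 genes (4.92% of those tested) and RZ exceeded SZ for 250 (1.75%). The SZ and RZ arrays did not overlap for 700 of the 703 and for 249 of the 250, against 27.1% of all genes. These genes were called on the same arrays, so that the lack of overlap follows largely from the calling and is no further evidence. Genes called higher in SZ had a median level of 8.68 in SZ and 6.80 in RZ, and genes called higher in RZ had a median level of 9.21 in RZ and 7.72 in SZ. Without a minimum fold, 2068 genes (14.5%) were higher in SZ and 1751 (12.2%) in RZ, and members of the gene lists below are counted by this rule. These shares are the ones to set beside each list count. The lists were chosen with earlier results of these data known, so that their counts are a description and no independent evidence. The median difference over all genes was -0.01.

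**Figure D1:**
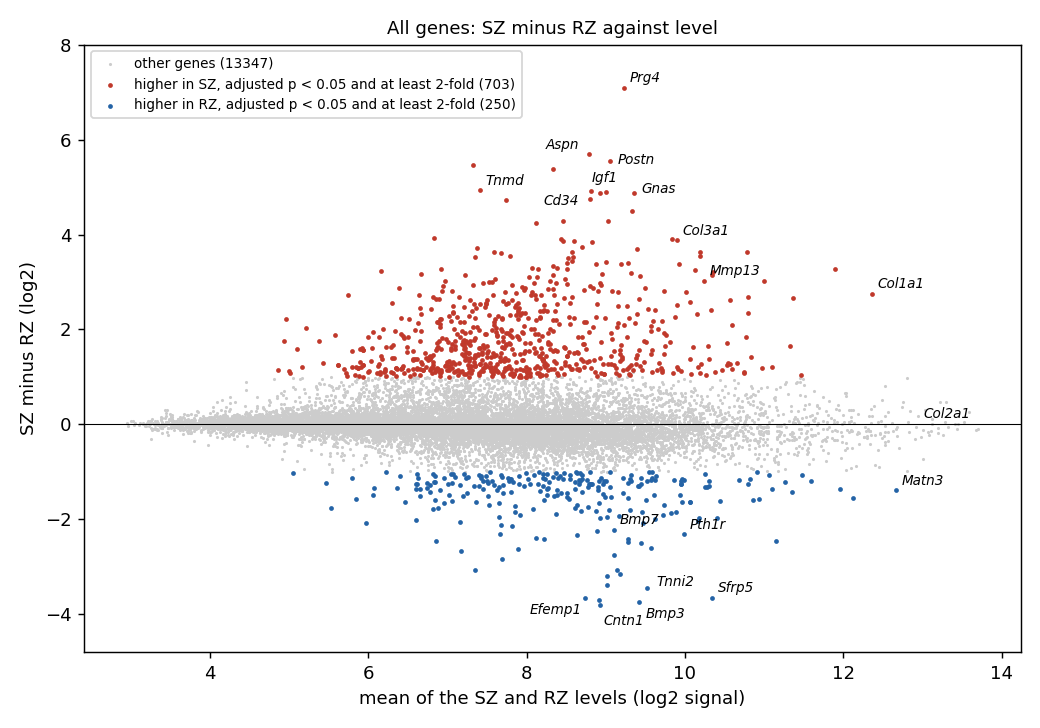
Difference between the zones (SZ minus RZ, log2) against the mean of the SZ and RZ levels (log2 signal) for the 14300 genes. Red points are the 703 genes called higher in SZ and blue points the 250 called higher in RZ; Prg4 lies at the top and Cntn1 at the bottom, and Col2a1, one of the brightest, lies on the zero line.

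After Prg4, the largest differences toward SZ were those of Aspn, Postn, Fap and Dpt. Aspn, a small leucine-rich proteoglycan that binds collagen, read 12.39, 11.50, 11.36 and 11.26 in the SZ arrays and 5.61, 6.18, 5.76 and 6.20 in the RZ arrays. SZ array 1 was the highest, and the zones were far from overlapping. Postn (periostin, a matricellular protein of periosteum and ligament) read 12.09, 11.92, 11.83 and 11.49 in SZ and 5.82, 6.55, 6.40 and 6.34 in RZ, a difference of 5.56 ± 0.18 (adjusted p = 1.54e-11). Fap, a surface protease of activated fibroblasts, read 10.10, 9.98, 10.24 and 9.88 in SZ and 4.43, 4.78, 4.45 and 4.70 in RZ (44.0-fold, adjusted p = 2.59e-13). IDZ was closer to SZ than to RZ for Fap, at 8.42 ± 0.11. Dpt (dermatopontin, a collagen-binding matrix protein) read 11.16, 11.19, 10.87 and 10.90 in SZ and 5.43, 6.01, 5.53 and 5.59 in RZ. Tnmd (tenomodulin, a membrane protein of tendon) was 9.88 ± 0.41 in SZ, 5.28 ± 0.01 in IDZ and 4.94 ± 0.14 in RZ, and SZ stood 4.93 ± 0.16 above RZ. Of the other leading genes, Fndc1, Vcan (versican, a large proteoglycan), Cd34 (a surface protein of endothelium and fibroblasts), Kera (keratocan), Rgs5 (a pericyte gene), Dkk3 (a member of the Dickkopf family), Tppp3, Olfml1, Tm4sf1 and Col3a1 were higher in SZ by between 3.89 and 4.92. Or51e1, an odorant receptor gene, differed by 4.24 ± 0.14, with 10.23 ± 0.31 in SZ, 6.77 ± 0.20 in IDZ and 5.99 ± 0.09 in RZ. Gnas differed by 4.88 ± 0.14, reading 11.74, 11.91, 11.93 and 11.62 in SZ and 6.95, 6.73, 7.13 and 6.88 in RZ. The Gnas locus is known to give several transcripts from separate promoters, and which of them this cluster measures was not tested.

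Among the genes with the largest differences toward RZ were adhesion proteins best known from neurons, secreted antagonists and a muscle gene. Cntn1 (contactin 1, a neuronal adhesion molecule) read 10.80, 10.76, 10.82 and 10.94 in the RZ arrays and 6.94, 7.20, 7.35 and 6.57 in the SZ arrays, 14.1-fold higher in RZ (adjusted p = 1.17e-10). Ctxn3 (cortexin 3, a small membrane protein) read 10.48, 10.46, 10.47 and 10.84 in RZ and 6.89, 6.92, 7.05 and 6.78 in SZ. Both zones were tight for Ctxn3, with no SZ array above 7.05 and no RZ array below 10.46. Bmp3, a BMP family member that opposes BMP signalling, read 11.35, 11.33, 11.14 and 11.31 in RZ and 7.42, 7.94, 7.86 and 6.95 in SZ, with SZ array 4 the lowest. Efemp1 (fibulin 3) was 10.76 ± 0.20 in RZ and 7.06 ± 0.13 in SZ. Tnni2, the fast skeletal troponin I, was higher in RZ by 3.45 ± 0.16, with 11.25 ± 0.15 in RZ, 8.50 ± 0.12 in IDZ and 7.80 ± 0.41 in SZ. Il17b (a cytokine), Moxd1 (a monooxygenase-like protein), F13a1 (coagulation factor XIII A, a transglutaminase), Tmeff1, Car8 (a carbonic anhydrase family member), Art3, Rspo3 (an activator of Wnt signalling), Mug1, Lrrn3, Shisa3, Epyc (epiphycan), Sox8, Fa2h and Smpd3 (neutral sphingomyelinase 2) were higher in RZ by between 2.45 and 3.38. For F13a1, IDZ (7.93 ± 0.34) lay near SZ (7.61 ± 0.40) and RZ was at 10.76 ± 0.36. For Rspo3 and Art3 it was the other way: IDZ was 10.39 ± 0.09 and 9.38 ± 0.05, close to the RZ levels of 10.49 ± 0.10 and 9.11 ± 0.04.

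**Figure D2:**
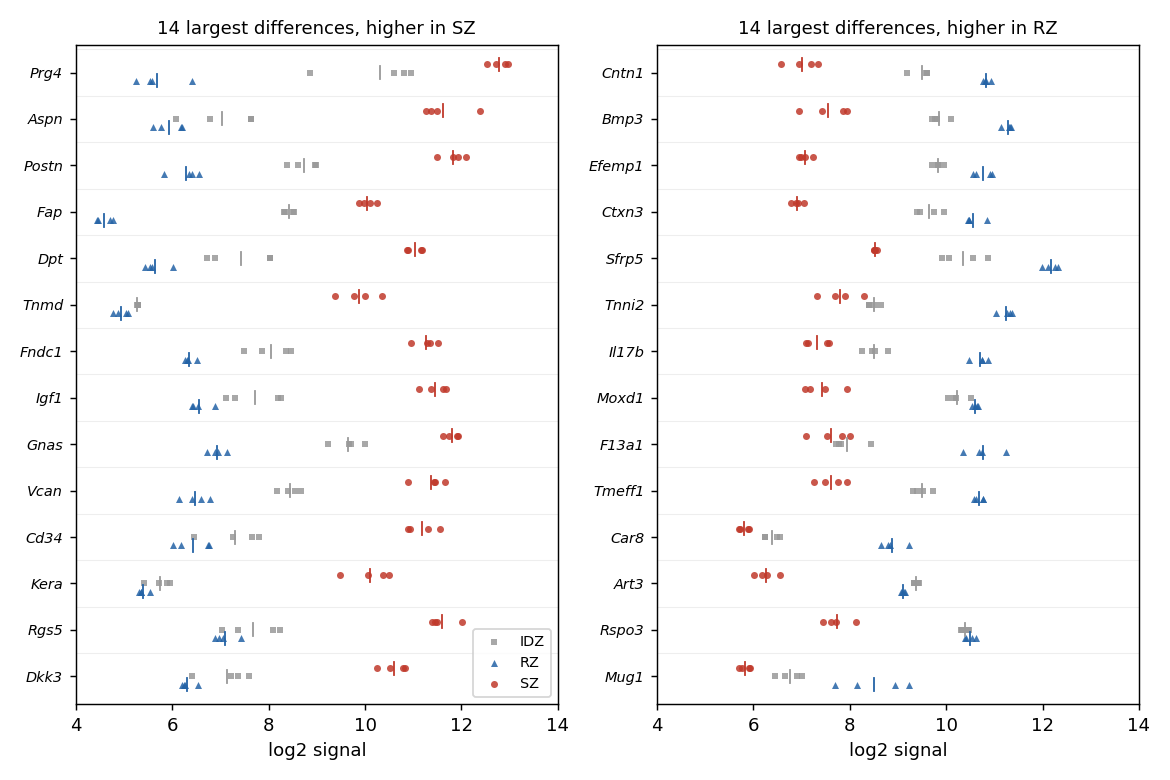
log2 signal of every array for the 14 genes with the largest differences toward SZ (left) and toward RZ (right); circles are SZ, squares IDZ and triangles RZ, and the bars are zone means (n = 4). The genes were drawn only from those whose SZ and RZ arrays do not overlap. IDZ lies between SZ and RZ for Prg4, Postn and Bmp3 but beside RZ for Tnmd and Rspo3.

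The brightest called genes were, in SZ, Col1a1, Col1a2, Prg4, Col12a1, Igfbp7 and Col14a1, with S100a10 (an annexin partner), Mmp2, Aqp1 and Dab2 (an endocytic adaptor) after them. S100a10 was 12.15 ± 0.11 in SZ and 10.50 ± 0.11 in RZ, and Dab2 was 11.98 ± 0.06 in SZ and 10.94 ± 0.18 in RZ. In RZ they were Matn3, Chst11, Smoc2 (a matricellular protein), Smpd3, Scd2, Sfrp5, Frzb, Xylt1, Col9a2 and Omd, and Smoc2 was 12.64 ± 0.10 in RZ and 11.27 ± 0.23 in SZ. Brightness depends on the probes of each cluster, so that no order of transcript amounts between genes follows from it.

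Upstream sequences are shown for a gene of the joint surface, a growth factor and the pair of genes that led toward RZ, so that the letters before the start of strongly zoned genes can be seen. The 250 bases before the annotated RefSeq start (build GRCr8) are printed 5′ to 3′ on the gene's strand. Capitals mark matches, on either strand, to any of 5 fixed motifs: TGANTCA (AP-1), TGACGTCA (CRE), GGAATG (TEAD), ACAATGG (SOX) and CACGTG (E-box).
Prg4, chr13:65054226-65054475, minus strand: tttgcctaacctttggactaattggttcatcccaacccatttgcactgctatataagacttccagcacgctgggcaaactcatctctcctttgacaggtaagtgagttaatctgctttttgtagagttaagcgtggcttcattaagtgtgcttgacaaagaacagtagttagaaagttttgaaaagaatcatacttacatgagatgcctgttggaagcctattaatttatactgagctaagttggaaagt
Igf1, chr7:24172282-24172531, plus strand: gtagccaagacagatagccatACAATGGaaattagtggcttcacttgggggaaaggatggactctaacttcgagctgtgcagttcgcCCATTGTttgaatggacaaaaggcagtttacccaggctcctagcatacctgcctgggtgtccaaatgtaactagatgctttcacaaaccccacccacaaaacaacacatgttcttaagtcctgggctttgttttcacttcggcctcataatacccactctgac
Cntn1, chr7:125252060-125252309, plus strand: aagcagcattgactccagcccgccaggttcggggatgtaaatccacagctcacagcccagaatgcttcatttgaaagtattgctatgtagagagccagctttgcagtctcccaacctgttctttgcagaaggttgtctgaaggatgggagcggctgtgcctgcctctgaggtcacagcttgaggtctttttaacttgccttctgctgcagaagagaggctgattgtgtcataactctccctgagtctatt
Bmp3, chr14:11041283-11041532, minus strand: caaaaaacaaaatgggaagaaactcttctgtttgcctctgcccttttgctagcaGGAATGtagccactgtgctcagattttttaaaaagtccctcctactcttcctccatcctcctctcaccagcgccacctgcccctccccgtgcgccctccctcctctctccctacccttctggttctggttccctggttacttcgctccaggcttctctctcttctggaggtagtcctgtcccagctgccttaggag
The Igf1 window holds the SOX letters at positions -229 and -163 from the start (the second as its reverse complement), the Bmp3 window holds the TEAD letters at -196, and the windows of Prg4 and Cntn1 hold no match. Over all 11784 genes with a window, counted with the 50 bases after the start as well, AP-1 letters occurred in 6.25%, CRE in 2.45%, TEAD in 12%, SOX in 2.63% and E-box letters in 7.90%. Of the 532 windows of genes called higher in SZ, 8.83% held AP-1 letters, 1.50% CRE, 13.3% TEAD, 1.32% SOX and 6.02% E-box letters. Of the 196 windows of genes called higher in RZ the shares were 6.12%, 1.02%, 9.18%, 2.04% and 7.14%. A match is only a run of letters, and these shares were not tested.

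Markers of cells other than chondrocytes were higher in SZ. Of 17 measured endothelial genes, 15 were higher in SZ and the other 2, Cldn5 and Prox1, did not pass. Cdh5 (VE-cadherin) read 9.54, 9.64, 9.59 and 9.09 in SZ and 6.81, 6.93, 6.64 and 6.56 in RZ, Tek (the angiopoietin receptor) was higher by 2.69 ± 0.15, and Plvap and Emcn by 3.11 ± 0.17 and 3.28 ± 0.18. The mean over the endothelial list was 8.31 to 8.82 in the SZ arrays and 6.37 to 6.58 in the RZ arrays. Of the 26 genes of macrophages and other myeloid cells, 23 showed higher signal in SZ, among them Mrc1 (mannose receptor, 3.01 ± 0.17), Csf1r (the receptor for macrophage colony-stimulating factor, 2.66 ± 0.18) and C1qa (2.59 ± 0.21). Their list mean was 7.66 to 8.40 in SZ and 6.17 to 6.77 in RZ. Of 15 pericyte and smooth muscle genes, 10 were higher in SZ (Rgs5 by 4.50 ± 0.23, Notch3 by 3.15 ± 0.18, Mcam by 2.98 ± 0.19) and 3 in RZ, among them Cspg4 and Cox4i2. Of 12 adipocyte genes, 6 were higher in SZ, including Lpl (lipoprotein lipase, 2.99 ± 0.24), Fabp4 (2.43 ± 0.32) and Adipoq (adiponectin, 1.96 ± 0.30).

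Among the other cell types, most of the measured osteoclast and synovial lining genes were higher in SZ. The remaining lists gave weaker or mixed readings. Of 4 osteoclast genes, Mmp9, Ctsk (cathepsin K) and Atp6v0d2 were higher in SZ and Calcr, the calcitonin receptor, was at 5.74 ± 0.20 in SZ and 5.78 ± 0.10 in RZ. Of 11 osteoblast genes, 2 were higher in SZ (Col1a1 and Pdpn) and 1 in RZ (Sp7, 0.94 ± 0.11), against 14.5% and 12.2% of all genes. Of 19 lymphocyte and mast cell genes, 3 were higher in SZ, against 14.5% of all genes. They were led by Cd4, which rat macrophages also carry (2.82 ± 0.19), and the mast cell protease Cpa3 (1.15 ± 0.21). Kit was higher in RZ by 1.05 ± 0.11, and the other 15 did not pass. No member of the erythroid and neutrophil list (16 genes) passed the limma test, and 0 did so at an unadjusted p under 0.05 or in the plain one-way contrast. Their list mean ranged from 6.74 to 8.04 over the SZ arrays and from 6.80 to 8.37 over the RZ arrays. Of 12 Schwann cell genes, Pmp22 and Ngfr were higher in SZ and Mag and S100b in RZ, and of 11 synovial lining genes, which share Prg4, Cd55 and Htra4 with the joint surface list, 9 were higher in SZ. Cxcl12, a chemokine of stromal cells, differed by 2.85 ± 0.15. The part that vascular, myeloid, adipose and synovial cells had in the SZ results was not tested. Of 4 sex-linked genes (Usp9x, Ddx3x, Eif2s3 and Zfx), 0 passed the limma test, 0 had an unadjusted p under 0.05 and 0 passed the plain one-way contrast.

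**Figure D3:**
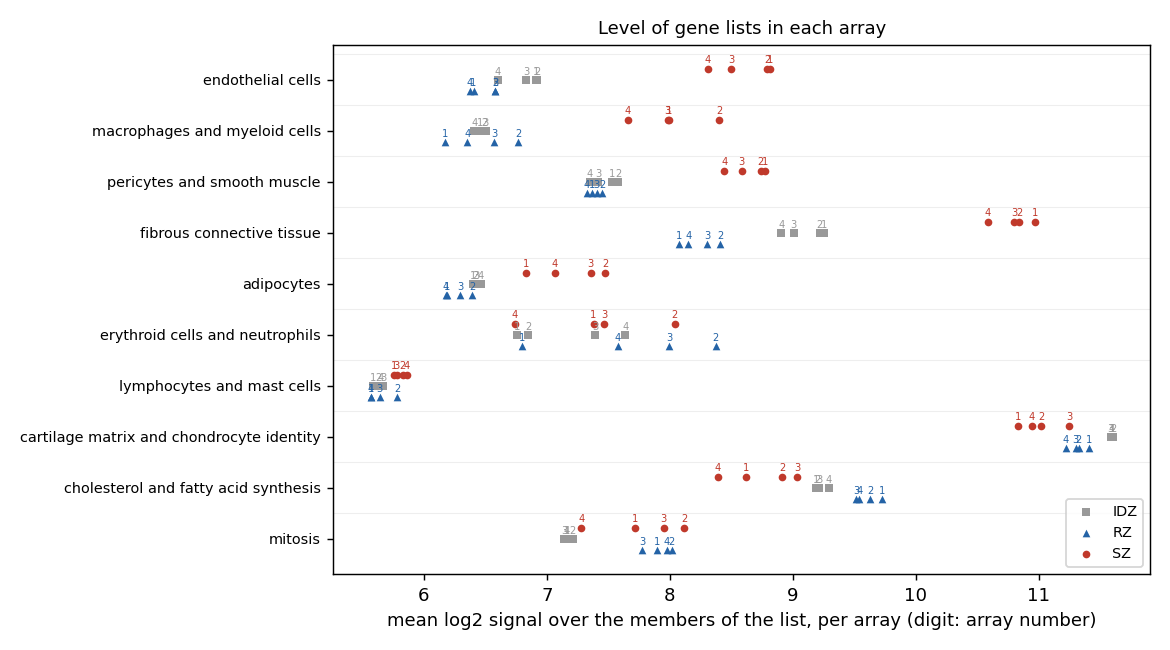
Mean log2 signal over the members of 10 gene lists in each array, with circles for SZ, squares for IDZ, triangles for RZ and the array number above each point. The SZ arrays lie above all IDZ and RZ arrays for the endothelial, macrophage, pericyte, fibrous and adipocyte lists and below all of them for cholesterol synthesis, and SZ array 4 is the lowest SZ array in 7 of the 10 lists.

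Genes of the joint surface were higher in SZ almost without exception. Of 15 measured members, 14 were higher in SZ, against 14.5% of all genes, and the median difference of the list was 2.14. The list was chosen with earlier results of these data known and holds Prg4, whose staining guided the dissection. Its count is thus no independent evidence. Tppp3, a tubulin-binding protein that marks cells of tendon sheath and synovium, was 11.17 ± 0.39 in SZ and 6.89 ± 0.20 in RZ. Cd55 (decay-accelerating factor, found on synovial lining) read 10.23, 9.60, 8.89 and 9.20 in SZ and 5.36, 6.47, 6.02 and 5.64 in RZ, with IDZ at 5.93 ± 0.60. Creb5, a transcription factor of the forming articular surface, read 9.72, 9.83, 9.89 and 9.29 in SZ and 6.40, 6.73, 6.45 and 6.70 in RZ (3.11 ± 0.14, adjusted p = 6.33e-10). Htra4 and the hyaluronan receptor Cd44 were higher by 2.81 ± 0.19 and 2.36 ± 0.16. Has2, a hyaluronan synthase, was the member that did not pass (9.03 ± 0.31 in SZ and 9.41 ± 0.10 in RZ). IDZ was near RZ for Tppp3, Htra4 and Cd44 (7.31 ± 0.38, 6.04 ± 0.24 and 5.99 ± 0.21) but far above it for Prg4 (10.31 ± 0.97).

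The collagens divided by type. Of 10 fibrillar collagen genes, 6 were higher in SZ and 3 in RZ. The type I chains Col1a1 and Col1a2 were higher in SZ by 2.76 ± 0.31 and 3.27 ± 0.27, and Col3a1 by 3.89 ± 0.14. Col1a2 read 13.58, 13.50, 13.53 and 13.53 in SZ, 11.88, 11.75, 11.73 and 11.09 in IDZ and 9.45, 10.58, 11.11 and 9.91 in RZ, so that SZ stood clear of both other zones, while IDZ array 4 lay just under RZ array 3. The type V chains Col5a2 and Col5a1, which nucleate type I fibrils, were higher in SZ by 2.92 ± 0.18 and 1.14 ± 0.10. Type II collagen, the main fibril of cartilage, did not pass: Col2a1 read 13.60, 13.65, 13.70 and 13.67 in SZ and 13.83, 13.78, 13.75 and 13.63 in RZ. Its partner Col11a2 was higher in RZ by 0.99 ± 0.10. All 5 fibril-associated collagens passed, 3 toward SZ (Col14a1 3.03 ± 0.08, Col12a1 2.66 ± 0.11, Col16a1 0.83 ± 0.08) and 2 toward RZ (Col9a2 1.21 ± 0.11 and Col9a1 0.90 ± 0.08, which coat type II fibrils). Of 13 basement membrane and pericellular genes, 6 were higher in SZ, led by Col4a1 (2.56 ± 0.14) and Col8a1 (2.47 ± 0.14), and 2 were higher in RZ, with Nid2 at 0.71 ± 0.11.

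Proteoglycans that bind collagen went both ways. Of 14 small leucine-rich proteoglycans, 5 were higher in SZ and 3 in RZ, and the median of the list was 0.20. Kera, known from cornea and tendon, read 10.37, 10.06, 10.50 and 9.49 in SZ and 5.53, 5.35, 5.31 and 5.35 in RZ. Lum (lumican) and Chad (chondroadherin) were higher in SZ by 2.40 ± 0.14 and 0.82 ± 0.13. Epyc, a proteoglycan of epiphyseal cartilage, read 7.56, 8.09, 9.42 and 7.68 in SZ and 10.74, 10.58, 10.70 and 10.76 in RZ, with IDZ at 10.94 ± 0.14, and Omd (osteomodulin) was higher in RZ by 1.35 ± 0.22. Fmod, Ogn and Dcn did not pass, with differences (SZ minus RZ) of 0.12, 0.30 and 0.06.

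Fibrous connective tissue had the largest median of the lists with over 20 members, 2.59, and 21 of its 24 members were higher in SZ. Aspn, Postn, Fap, Dpt, Fndc1 and Igf1 led it, and Dcn, Pi16 and Dpp4 did not pass. Its list mean was 10.59 to 10.97 in SZ, 8.91 to 9.26 in IDZ and 8.07 to 8.41 in RZ. Many members of the fibrous list, such as Col1a1, Aspn, Mfap5, Loxl1, Pdgfrb and Igf1, are also counted in other lists. The counts of those lists are thus not independent of this one. The tendon and ligament list had 8 measured members, 6 of them higher in SZ. Scx (scleraxis), the transcription factor of tendon progenitors, read 8.94, 8.57, 8.46 and 8.47 in SZ and 7.80, 7.71, 7.83 and 7.89 in RZ, a difference of 0.80 ± 0.11. Of 17 elastic fibre and microfibril genes, 13 were higher in SZ and 3 in RZ. Ltbp4 (which tethers latent TGF-beta), Mfap4, Fbln5 and Mfap5 were higher in SZ by 3.54 ± 0.14, 3.24 ± 0.09, 2.79 ± 0.17 and 2.54 ± 0.21, whereas Efemp1 and Mfap3l were higher in RZ by 3.70 ± 0.11 and 2.13 ± 0.18. Mfap3l read 6.31, 6.98, 6.95 and 6.20 in SZ and 9.08, 8.68, 8.41 and 8.79 in RZ, with IDZ at 6.49 ± 0.19. Endothelial, myeloid and adipocyte markers moved the same way as these lists, as given above.

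Proteases that remodel matrix were mostly higher in SZ. Of 30 measured proteases and inhibitors, 23 were higher in SZ and 3 in RZ, with a median difference of 1.52. Mmp13, the main collagenase for type II collagen, read 12.21, 11.89, 10.87 and 12.03 in SZ and 7.29, 9.41, 9.79 and 8.41 in RZ. Mmp9 (gelatinase B) read 12.19, 12.12, 11.22 and 11.97 in SZ and 8.52, 10.21, 9.96 and 8.35 in RZ, and no RZ array reached the SZ levels. Mmp3 (stromelysin), Mmp2 (gelatinase A) and Htra1 (a serine protease) were higher in SZ by 3.15 ± 0.19, 2.68 ± 0.10 and 3.13 ± 0.09. Serpinf1 (pigment epithelium-derived factor, an inhibitor of vessel growth) was higher by 3.18 ± 0.19. Timp3, Adamts9 and Timp4 did not pass. Of 26 genes that crosslink or process collagen, 7 were higher in SZ and 10 in RZ. Loxl1, a lysyl oxidase, Adamts2, which removes the N-propeptide of collagen, and the transglutaminase Tgm2 were higher in SZ by 2.78 ± 0.09, 1.81 ± 0.13 and 1.60 ± 0.17. P3h4 and P4ha2, which take part in the hydroxylation of collagen, were higher in RZ by 0.98 ± 0.11 and 0.95 ± 0.16.

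Cartilage matrix genes were mostly higher in RZ. Of 23 measured members, 15 were higher in RZ and 4 in SZ, against 12.2% and 14.5% of all genes, and the list had a median of -0.85. Matn3 (matrilin 3) read 13.47, 13.40, 13.33 and 13.27 in RZ and 11.84, 11.97, 12.34 and 11.75 in SZ, and Snorc, a chondrocyte membrane proteoglycan, 11.75, 11.78, 11.62 and 11.72 in RZ and 9.81, 10.09, 10.42 and 10.28 in SZ. Acan, the core protein of aggrecan, named outside the rule for its role, was 13.37 ± 0.07 in RZ and 12.65 ± 0.15 in SZ (0.73 ± 0.09 higher in RZ). The 4 members that went the other way included Vcan, which read 11.45, 11.66, 11.44 and 10.90 in SZ, 8.54, 8.68, 8.40 and 8.18 in IDZ and 6.59, 6.41, 6.78 and 6.15 in RZ, and Cytl1, a secreted chondrocyte protein, which was 9.59 ± 0.42 in SZ, 9.28 ± 0.15 in IDZ and 6.61 ± 0.06 in RZ. Col2a1, Fmod and Ucma did not pass. Of 33 enzymes and transporters of glycosaminoglycan synthesis, 14 were higher in RZ and 8 in SZ. Csgalnact1, which starts chondroitin chains, was 10.59 ± 0.09 in RZ and 8.88 ± 0.35 in SZ. Papss2, which makes the sulfate donor, the sulfate transporter Slc26a2 and the chondroitin sulfotransferase Chst11 were higher in RZ by 1.59 ± 0.13, 1.48 ± 0.13 and 1.55 ± 0.11, and Xylt1, which adds the first sugar of the linker, by 1.06 ± 0.11. In the other direction, Sulf2 and Sulf1, which remove sulfate from heparan sulfate outside the cell, were higher in SZ by 2.33 ± 0.14 and 2.00 ± 0.12.

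Genes of hypertrophy and mineralization were more often higher in RZ than in SZ. Of 26 members, 14 were higher in RZ and 4 in SZ, with a median of -0.67. Smpd3 read 12.46, 12.31, 12.46 and 12.27 in RZ and 10.07, 9.64, 9.98 and 10.01 in SZ, and the carbonic anhydrase Car12 was 9.43 ± 0.17 in RZ and 7.01 ± 0.04 in SZ. The members higher in SZ were Mmp13, Mmp9, Ankh (a pyrophosphate transporter that restrains mineralization, 2.78 ± 0.17) and Mgp (matrix Gla protein). Enpp1, Ibsp and Entpd5 did not pass. Of 15 genes linked with the resting zone or with chondroprogenitors, chosen with these results known, 6 were higher in RZ and 6 in SZ. Lrrn3 was 9.21 ± 0.30 in RZ and 6.58 ± 0.45 in SZ, whereas Wif1 read 10.71, 10.59, 10.72 and 10.10 in SZ and 6.82, 6.71, 6.58 and 6.58 in RZ.

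The receptor of the growth plate feedback loop was higher in RZ. Pth1r, the receptor for parathyroid hormone-related protein, read 11.23, 11.12, 11.14 and 11.09 in RZ and 9.08, 8.83, 8.83 and 8.58 in SZ, 4.96-fold higher in RZ (adjusted p = 3.76e-10), with IDZ at 10.55 ± 0.06. Of the 12 PTHrP pathway genes measured, 4 were higher in SZ and 4 in RZ. The largest difference of the list was that of Gnas, toward SZ, as given above with its limit. Downstream of the receptor, Prkar2b (a regulatory subunit of protein kinase A) and the phosphodiesterases Pde3a and Pde4b were higher in RZ by 1.15 ± 0.19, 0.96 ± 0.11 and 0.75 ± 0.11, and the phosphodiesterase Pde4d was higher in SZ by 1.18 ± 0.10. Prkacb, Creb1 and Crem did not pass. In the Hedgehog pathway, 2 of 13 genes were higher in SZ and 3 in RZ, against 14.5% and 12.2% of all genes. Ihh (Indian hedgehog) was 7.39 ± 0.23 in RZ and 6.87 ± 0.18 in SZ, and the transcription factor Gli2 read 9.79, 9.78, 9.73 and 9.71 in RZ and 8.08, 8.29, 8.48 and 8.08 in SZ. Cdon, a Hedgehog co-receptor, was higher in SZ by 1.30 ± 0.12 and Gli3 by 0.44 ± 0.11. Smo, the signal transducer, and Gli1, a target gene, did not pass (0.03 and -0.30).

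BMP family members were distributed over both zones. Of 20 ligands and receptors, 11 were higher in SZ and 3 in RZ. Bmp5 read 8.49, 8.67, 8.90 and 8.13 in SZ, 6.34, 6.50, 6.78 and 6.62 in IDZ and 5.23, 5.08, 5.40 and 5.41 in RZ, a series without overlap between the zones. Bmp4, Bmp6 and the activin subunit Inhba were higher in SZ by 2.04 ± 0.13, 1.31 ± 0.21 and 2.01 ± 0.16. Bmp7 read 10.43, 10.24, 9.95 and 10.25 in RZ and 7.85, 8.31, 8.29 and 7.52 in SZ, and IDZ (8.11 ± 0.30) lay beside SZ. Of 12 antagonists, 5 were higher in RZ and 3 in SZ. Nog (noggin) was higher in RZ by 1.22 ± 0.17 and Grem1, as above, by 0.95 ± 0.19, with IDZ above both at 10.10 ± 0.14. Nbl1, a member of the DAN family of antagonists, read 10.84, 10.66, 10.52 and 10.14 in SZ and 7.23, 7.31, 7.47 and 7.47 in RZ, and Fst (follistatin) and Fstl1 were higher in SZ by 1.17 ± 0.11 and 0.95 ± 0.08. Of 14 genes that respond to BMP, 8 were higher in SZ and 1, Smad9, in RZ, which did not pass in the plain one-way contrast. The inhibitory Smads Smad6 and Smad7 were higher in SZ by 1.22 ± 0.15 and 0.66 ± 0.13, and Id3 by 1.18 ± 0.14, while Id2, Id4 and Dlx3 did not pass. In the TGF-beta list, 7 of 12 genes were higher in SZ, among them Tgfb3 (10.85, 10.82, 10.87 and 10.62 in SZ and 8.63, 8.62, 8.49 and 8.74 in RZ), the co-receptor Tgfbr3 (1.73 ± 0.13) and Tgfb2 (0.99 ± 0.12), and Tgfb1, Smad2 and Smad4 did not pass.

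Wnt antagonists differed member by member. Of 14 measured, 4 were higher in SZ and 3 in RZ, and the median of the list was 0.06. Dkk3 read 10.79, 10.84, 10.51 and 10.25 in SZ and 6.20, 6.26, 6.53 and 6.24 in RZ. Wif1, which binds Wnt ligands, was higher in SZ by 3.86 ± 0.15 and Sfrp2 by 0.91 ± 0.16. Frzb (Sfrp3) read 12.20, 12.14, 11.99 and 11.96 in RZ and 10.46, 10.35, 11.01 and 10.74 in SZ, and Sfrp1 was higher in RZ by 1.29 ± 0.21. Of the secreted frizzled-related proteins measured, Sfrp5 was the one with the largest difference between these zones. Of 30 ligands, R-spondins and receptors, 7 were higher in SZ and 4 in RZ, against 14.5% and 12.2% of all genes. Rspo3 read 10.53, 10.40, 10.41 and 10.61 in RZ and 7.72, 7.62, 8.13 and 7.44 in SZ. The receptor Fzd4 read 10.43, 10.53, 10.73 and 9.89 in SZ and 6.27, 6.75, 6.68 and 6.42 in RZ, and Fzd8 and the receptor tyrosine kinase Ror1 were higher in SZ by 2.18 ± 0.11 and 1.35 ± 0.15. Among 13 target and feedback genes, Lgr5, an R-spondin receptor and a target, was 7.54 ± 0.38 in SZ and 5.30 ± 0.10 in RZ, Axin2 was higher in SZ by 0.51 ± 0.08, and Lef1, a nuclear effector, was higher in RZ by 1.71 ± 0.12.

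The IGF axis combined some of the largest differences with members that did not pass. Igf1 (insulin-like growth factor 1) read 11.68, 11.36, 11.62 and 11.12 in SZ, 8.20, 8.26, 7.31 and 7.12 in IDZ and 6.43, 6.88, 6.53 and 6.41 in RZ, 29.6-fold higher in SZ than in RZ (adjusted p = 6.89e-10). Its zones did not overlap. Igfbp5 read 11.76, 11.88, 11.85 and 11.65 in SZ and 7.77, 8.18, 7.82 and 7.73 in RZ, and Igfbp7, Igfbp6, Igfbp3 and Igfbp4 were higher in SZ by 3.63 ± 0.11, 2.41 ± 0.16, 2.40 ± 0.19 and 2.27 ± 0.17. In all, 8 of 20 members were higher in SZ and 4 in RZ. The 4 in RZ, named outside the rule, were Igf2 (0.30 ± 0.08), Igf1r (the receptor, 0.59 ± 0.12), Irs1 (0.74 ± 0.09) and Pappa (a protease that cuts IGF-binding proteins, 1.26 ± 0.13). Igf2 no longer passed after cyclic loess scaling, and H19, Igf2r and Insr did not pass.

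Within the FGF axis, the receptor Fgfr3 was higher in RZ and the feedback genes Dusp6, Spry1 and Spry2 were higher in SZ. Of 24 members, 12 were higher in SZ and 5 in RZ. Fgfr3, the receptor that restrains growth plate chondrocytes, read 11.33, 11.23, 11.09 and 11.07 in RZ and 8.95, 9.19, 9.39 and 9.03 in SZ, while Fgfr1 and Fgfr2 did not pass (0.14 and 0.21). The feedback inhibitors Dusp6, Spry1 and Spry2 and the ETS factor Etv1 were higher in SZ by 2.41 ± 0.15, 2.39 ± 0.16, 1.50 ± 0.11 and 2.35 ± 0.14. Fgf2 was higher in SZ by 1.19 ± 0.14. Of 16 PDGF and VEGF axis genes, 12 were higher in SZ and 3 in RZ. Pdgfrb, Flt1 and Pdgfb were higher in SZ by 2.50 ± 0.11, 2.29 ± 0.13 and 1.85 ± 0.13, whereas Vegfa was higher in RZ by 0.90 ± 0.16. Of 18 Notch pathway genes, 13 were higher in SZ and the other 5 did not pass, among them Notch2, Dlk1 and Hes5. Jag1 and Dll4, both ligands, were higher by 1.90 ± 0.13 and 1.69 ± 0.18. Pdgfrb, Flt1, Notch3 and Dll4 are also genes of vessel walls, whose other markers were higher in SZ as given above, and the part of vessels in these counts was not tested. In the CCN family of matricellular proteins, Ccn3, Ccn4 and Ccn5 were higher in SZ by 2.82 ± 0.17, 1.83 ± 0.11 and 0.48 ± 0.12, and Ccn1 and Ccn2 did not pass.

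**Figure D4:**
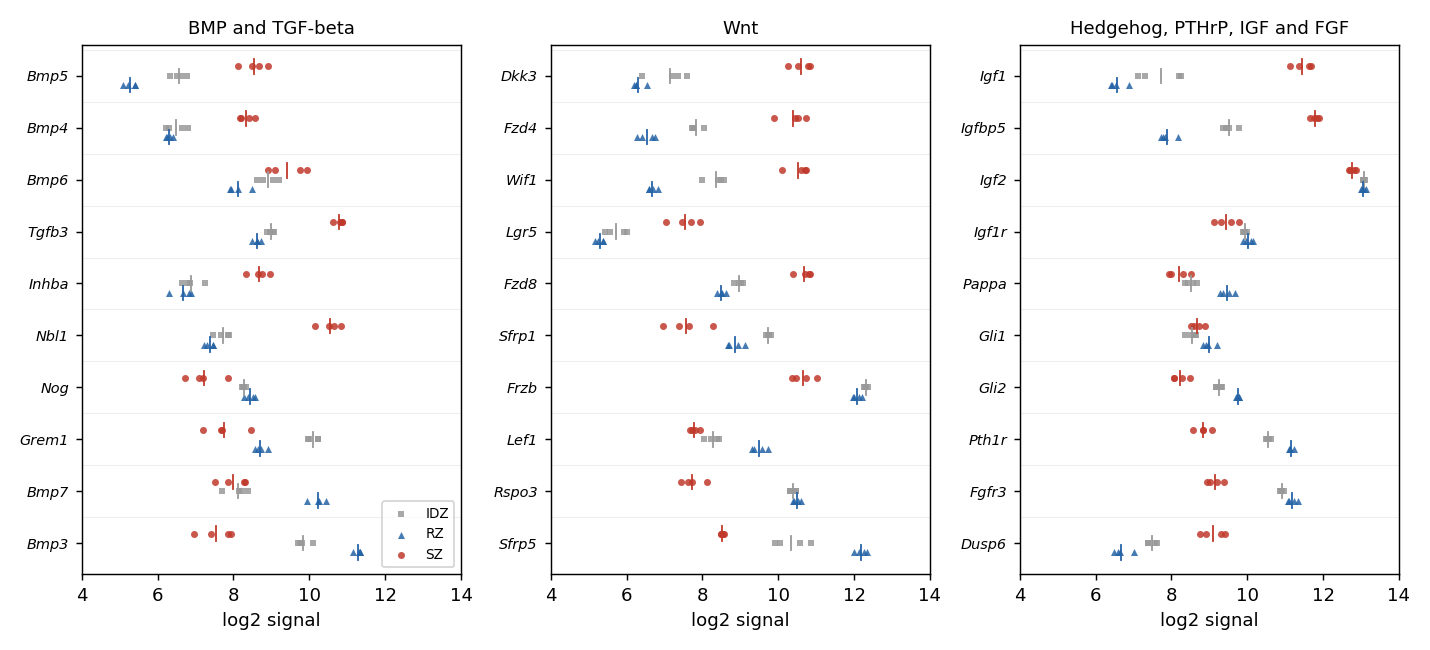
log2 signal of every array for 30 signalling genes, with circles for SZ, squares for IDZ, triangles for RZ and bars for zone means (n = 4). Bmp5, Dkk3, Igf1 and Igfbp5 are high in SZ, Bmp3, Sfrp5, Pth1r and Fgfr3 are high in RZ, and for Bmp7 and Lef1 the IDZ arrays lie nearer to SZ.

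Transcription factors differed in both directions. Of 35 limb patterning and Hox factors, 13 were higher in SZ and 4 in RZ. Prrx1, a factor of limb mesenchyme, read 11.99, 12.04, 11.99 and 11.81 in SZ, 10.21, 10.35, 10.29 and 10.20 in IDZ and 8.66, 8.90, 8.86 and 8.58 in RZ, and its paralog Prrx2 was higher in SZ by 2.16 ± 0.15. Sim2 was 8.18 ± 0.14 in SZ, 8.39 ± 0.15 in IDZ and 6.25 ± 0.18 in RZ, so that both articular zones stood above RZ. Barx1, known from the joint interzone, was likewise lowest in RZ (9.78 ± 0.17 in SZ, 9.84 ± 0.08 in IDZ and 8.34 ± 0.36 in RZ). Shox2, a limb factor that acts in chondrocyte maturation, read 9.99, 9.93, 9.76 and 9.98 in RZ and 8.03, 8.10, 8.14 and 7.47 in SZ. Pitx1, Hoxa11 and Hoxa7 did not pass. Of 29 chondrocyte fate factors, 16 were higher in SZ and 8 in RZ. Foxp1 and Zeb2 were higher in SZ by 2.93 ± 0.14 and 2.31 ± 0.16. Sox8, a relative of Sox9, read 10.75, 10.53, 10.37 and 10.45 in RZ, 9.42, 9.42, 9.33 and 9.48 in IDZ and 7.74, 8.16, 8.13 and 8.15 in SZ, without overlap between the zones. Sox11 and Bhlhe41 were higher in RZ by 1.80 ± 0.11 and 2.07 ± 0.11, and Runx2 and Sox5, named outside the rule, by 1.19 ± 0.08 and 0.94 ± 0.13. Sox9 itself was not analysed here.

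Genes of cell division differed little. None of 27 mitosis genes passed the limma test, 7 had an unadjusted p under 0.05, all of these toward RZ, and 0 passed in the plain one-way contrast. Top2a read 9.17, 9.55, 9.46 and 8.60 in SZ and 9.23, 9.37, 9.19 and 9.39 in RZ, with SZ array 4 far below its zone. Without SZ array 4, 4 mitosis genes were higher in SZ. Of 28 DNA replication genes, 1 was higher in SZ (Tyms) and 2 in RZ (Rfc5 and Dut), below the shares of all genes. Rfc5 and Dut did not pass in the plain one-way contrast, and Pcna, Mcm2 and Rrm2 did not pass in either. Without SZ array 4, Pcna passed toward SZ with a difference of 0.29. Among 18 G1 cyclins and inhibitors, Ccnd2 and Cdk6 were higher in SZ by 1.28 ± 0.11 and 1.14 ± 0.14. Cdkn1c (p57), an inhibitor of the cell cycle in growth plate chondrocytes, read 10.81, 10.77, 10.71 and 10.82 in RZ and 9.09, 9.29, 9.18 and 9.01 in SZ, and Ccne1 (cyclin E1) 8.52, 8.50, 8.50 and 8.53 in RZ and 7.28, 7.54, 7.13 and 6.42 in SZ. IDZ was 6.94 ± 0.03 for Ccne1, near SZ.

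Genes of lipid synthesis were higher in RZ. Of 20 genes of cholesterol and fatty acid synthesis, 18 were higher in RZ, against 12.2% of all genes, and the median difference was -0.90. Lss (lanosterol synthase) read 10.18, 10.00, 9.83 and 9.72 in RZ and 8.49, 8.79, 8.69 and 7.98 in SZ, and Cyp51, which acts after it, 10.61, 10.69, 10.37 and 10.64 in RZ and 9.23, 9.58, 9.78 and 8.70 in SZ. Sc5d, Insig1, Scd2 (a fatty acid desaturase) and Acly were higher in RZ by 1.30 ± 0.18, 1.22 ± 0.13, 1.20 ± 0.10 and 1.17 ± 0.15. Elovl6 and Stard4 did not pass. The list mean was 8.39 to 9.04 in SZ, with array 4 the lowest, and 9.51 to 9.72 in RZ. Without SZ array 4, 17 of the 20 were higher in RZ. Of 34 glycolysis and hypoxia response genes, 22 were higher in RZ and 4 in SZ. Aldoc (aldolase C), Hk2 (hexokinase 2), Adm (adrenomedullin) and the glucose transporter Slc2a1 were higher in RZ by 1.54 ± 0.12, 1.45 ± 0.11, 1.40 ± 0.16 and 1.05 ± 0.18. Epas1 (HIF-2 alpha) went the other way, 10.41 ± 0.19 in SZ and 8.18 ± 0.26 in RZ. It is also abundant in endothelium. Gapdh and Aldoa did not pass. Of 41 oxidative phosphorylation genes, 3 were higher in SZ and 1 in RZ, and 9 and 1 without SZ array 4. Of 31 genes of the endoplasmic reticulum, 11 were higher in RZ and 1 in SZ: Creb3l1, a factor for collagen secretion in bone (1.63 ± 0.13). Pdia5 was higher in RZ by 1.33 ± 0.20, and Hspa5, Pdia3 and Kdelr2 did not pass.

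**Figure D5:**
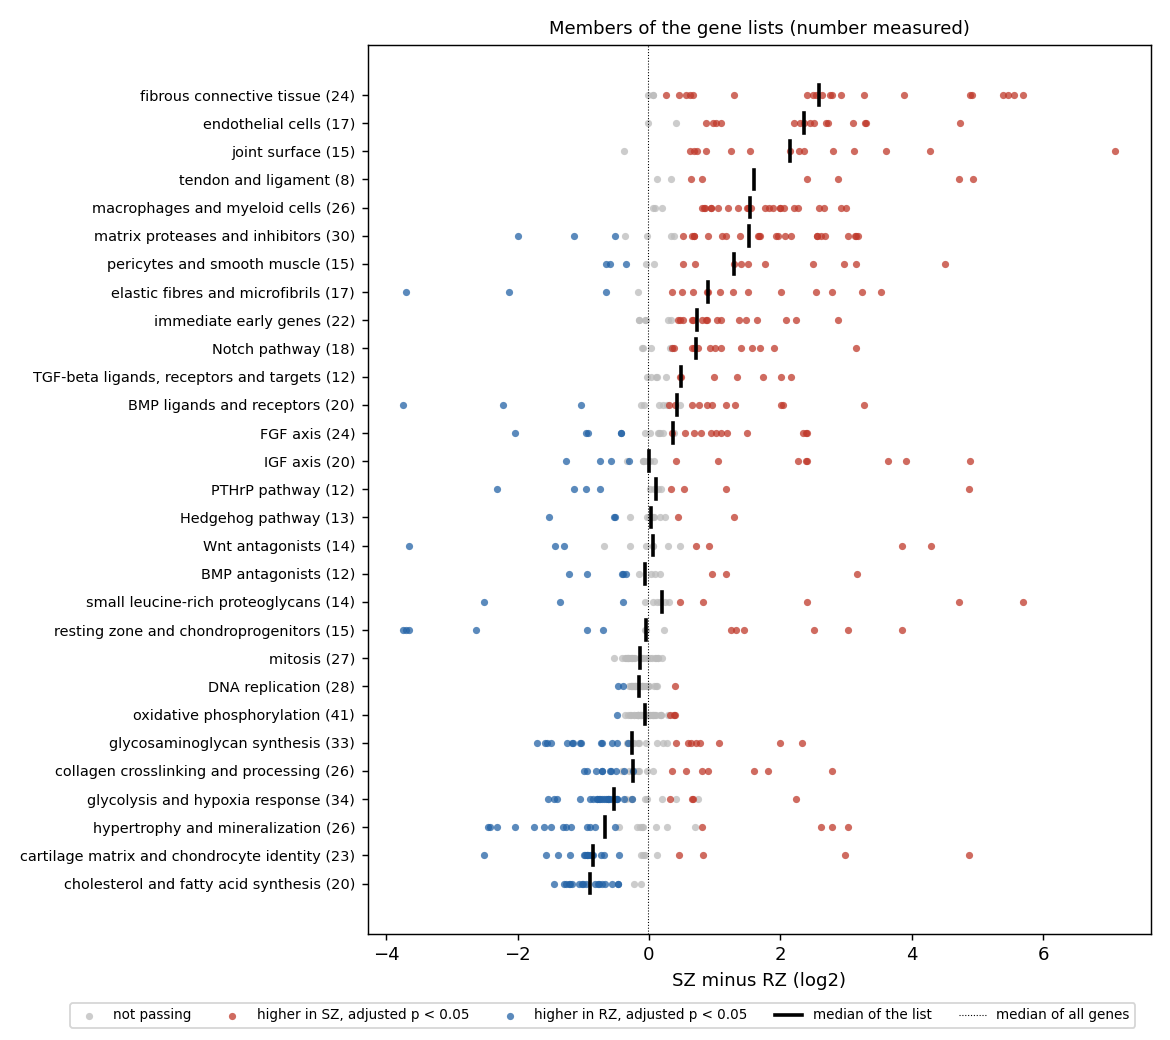
Difference of every measured member of 29 gene lists (SZ minus RZ, log2), with red for members higher in SZ and blue for members higher in RZ at an adjusted p under 0.05, grey for the rest, a bar for the median of the list and a dotted line for the median of all genes. List medians run from 2.59 for fibrous connective tissue to -0.90 for cholesterol and fatty acid synthesis, and the mitosis list holds no coloured point.

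Immediate early genes, which cells switch on within minutes of a stimulus, were higher in SZ. Of 22 members, 16 were higher in SZ and the other 6 did not pass. Egr1 read 10.84, 11.03, 10.71 and 11.14 in SZ and 7.70, 8.58, 8.19 and 7.75 in RZ, with IDZ at 8.69 ± 0.25, and Dusp1 and Jun were higher by 2.23 ± 0.18 and 2.09 ± 0.16. Ier3, Gadd45b and Myc did not pass. Of 15 complement genes, 9 were higher in SZ and 1 in RZ, led by Cd55, C1r (2.49 ± 0.15) and C3ar1 (2.19 ± 0.19). Of 28 genes of antigen presentation and interferon response, 16 were higher in SZ and the others did not pass. Ifitm3, B2m (beta-2 microglobulin) and Cd74 were higher by 3.85 ± 0.16, 2.35 ± 0.12 and 2.39 ± 0.21. Macrophage markers were higher in the same arrays, and their part in the complement and antigen presentation counts was not tested.

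Adhesion and guidance molecules held large differences in both directions. Of 34 axon guidance genes, 15 were higher in SZ and 10 in RZ. Sema3a, a secreted repellent, read 9.03, 9.23, 9.25 and 8.72 in SZ and 5.90, 5.80, 6.31 and 6.21 in RZ, and Epha3 and Sema6d were higher in SZ by 2.06 ± 0.15 and 1.76 ± 0.14. Ntn1 (netrin 1) read 10.32, 10.34, 10.23 and 10.64 in RZ, 8.74, 8.74, 8.48 and 8.15 in SZ and 7.61, 7.89, 7.60 and 7.79 in IDZ, and its receptor Unc5c 10.67, 10.55, 10.44 and 10.30 in RZ, 7.82, 8.26, 8.46 and 7.75 in SZ and 10.35, 10.36, 10.19 and 10.32 in IDZ. For Ntn1 the lowest level was thus in IDZ, and for Unc5c in SZ. Of 27 genes of neuronal adhesion and synapse, 5 were higher in SZ and 6 in RZ. Besides Cntn1, Ctxn3 and Lrrn3, these included Sorcs2 and the potassium channel Kcnt2, higher in SZ by 1.93 ± 0.12 and 1.90 ± 0.11, and for Kcnt2 IDZ was at 7.80 ± 0.04, above both. Of 28 integrins and cadherins, 14 were higher in SZ and 4 in RZ. Cdh13 and the collagen-binding integrin Itga2 were higher in SZ by 3.51 ± 0.16 and 2.47 ± 0.15, and Pcdh8 was higher in RZ by 1.13 ± 0.10. Of 23 caveolin, annexin and S100 genes, 16 were higher in SZ and 3 in RZ. Cav1, the coat protein of caveolae, read 11.99, 12.03, 11.95 and 11.87 in SZ and 8.53, 8.63, 8.27 and 8.26 in RZ, and Anxa1 was higher in SZ by 2.43 ± 0.12. S100b, known from chondrocytes and glia, was higher in RZ by 0.96 ± 0.12. Among 40 ion channels and transporters, 15 were higher in SZ and 11 in RZ. Aqp1, a water channel, read 12.13, 12.15, 11.94 and 11.80 in SZ and 7.61, 8.94, 8.70 and 8.28 in RZ, and the calcium-activated scramblase Ano6 was higher in SZ by 2.87 ± 0.20. Aqp1 and Cav1 are both abundant in endothelium as well.

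In the list of striated muscle genes, 3 of 25 were higher in SZ and 2 in RZ, shares below those of all genes. The 2 in RZ were the fast troponins Tnni2 and Tnnt3. Tnni2 read 11.33, 11.27, 11.04 and 11.36 in RZ and 8.30, 7.31, 7.70 and 7.89 in SZ, and Tnnt3 was 8.98 ± 0.16 in RZ, 9.53 ± 0.08 in IDZ and 7.95 ± 0.22 in SZ. Tpm2, Acta1 and Myl11 were higher in SZ by 1.64 ± 0.15, 0.82 ± 0.26 and 0.57 ± 0.19, and Ckm (muscle creatine kinase) did not pass (8.05 ± 0.57 in SZ and 7.78 ± 0.15 in RZ). Acta1 and Myl11 no longer passed without SZ array 4, without SZ array 1, in the plain one-way contrast or with the SZ and RZ arrays alone. The Acta1 difference was 0.79 without SZ array 4 and 0.55 without SZ array 1. Without SZ array 4, 1 member of the list was higher in SZ and 4 were higher in RZ.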

How the data were processed

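RNA from microdissected cartilage was hybridized to whole-transcript rat arrays. The authors normalized the arrays by RMA in Partek Genomics Suite 6.6 (per the labels and the study's methods) and deposited 1 log2 value per transcript cluster and array. RMA includes quantile normalization, so that a shift of all transcripts together would not be seen. Probe-level signals, the separate growth plate data and the PCR data were not used here, and 0 value columns could not be tied to a sample. Of 27342 clusters, 15068 carried 1 gene symbol, 323 several and 11951 none. Symbols came from the platform annotation. The brightest cluster stood for each of the 14300 genes, and none of the 495 genes with several clusters had clusters that differed in direction with both past the threshold.

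The 12 arrays were fitted with limma 3.58.1 (R 4.3.3) as 3 zones with 9 residual degrees of freedom, and SZ was contrasted with RZ for every cluster. Adjusted p-values are Benjamini-Hochberg values over all clusters. Precision depends on having 4 arrays per zone. Figures and summaries used Python 3.11.15, pandas 2.3.3 and matplotlib 3.10.9. Promoter windows were the RefSeq windows of build GRCr8, matched by gene identifier for 11784 genes.

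The members and the 58 gene lists were chosen with earlier results of these data known. Genes named are the 20 per direction with the largest differences among those at least 2-fold apart and without overlap of arrays. Up to 6 passing and 3 bright other members per list were also named (up to 4 more of the brightest for other cell types). The 12 genes that the study measured by PCR and the 10 brightest called genes per direction complete the set. Acan, Igf2, Igf1r, Irs1, Pappa, Mgp, Runx2 and Sox5 were named outside that rule after their values were seen. Alternatives covered the test, the arrays, the pairing, dim clusters, the scaling, the minimum fold and the cluster rule.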

Additional observations from a re-analysis of the deposited data

Results flagged for a closer look

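In each zone of 4 arrays, the gap of the highest or lowest array to the nearest of the others was divided by the whole range of the zone, and a share above the Dixon limit marked the array as standing apart. The genes named above gave 604 such groups, 23 of which passed that limit (3.81%), while chance flags about 1 in 20 groups.

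SZ array 4 stood apart for 7 of them. It was the lowest SZ array for Epha3 (0.837 of the range), Pcna (0.905, at 9.16 against 9.83 for the next array), Pde3a (0.879), Shox2 (0.836) and Timp4 (0.882), and the highest for Car12 (0.857) and Ngfr (0.860). SZ array 1 was the lowest for Sox8 (0.929, at 7.74 against 8.13) and Mgp (0.840) and the highest for Rgs5 (0.852). SZ array 2 was the lowest for Chad (0.850).

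Among the RZ arrays, array 1 was the highest for Adm (0.940, at 9.24 against 8.77) and Dab2 (0.838). Array 2 was the highest for Col14a1 (0.889), Mmp3 (0.885), Pdgfrb (0.889) and Rrm2 (0.870). Array 3 was the highest for Olfml1 (0.848) and the lowest for Fa2h (0.853). Array 4 was the highest for Ctxn3 (0.947, at 10.84 against 10.48) and Omd (0.840) and the lowest for Dusp1 (0.841) and Runx2 (0.857).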

How the results depend on the processing

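No gene named above that passed the test changed direction under any alternative in which it was measured. Of the 61 named genes that did not pass, 12 passed after cyclic loess scaling, 8 without SZ array 4 and 5 after a further quantile normalization. A one-way test of any difference among the 3 zones let 16 of them pass. At 2-fold, 703 genes passed toward SZ and 250 toward RZ, and leaving out 1 array in turn gave 669 to 797 and 231 to 280. Without a minimum fold, leaving out 1 array moved the counts of 2068 and 1751 to 1823 to 2753 and 1329 to 2143, each highest without SZ array 4. The weights that count this array less gave 778, 228, 2632 and 1988. A fit of the SZ and RZ arrays alone gave 703 and 250 at 2-fold and 1794 and 1349 at any size. At any size, RZ had more genes than SZ without SZ array 2 (1907 against 1857) and without dim clusters (1740 against 1570). The same held after a further quantile normalization (2268 against 2251). Testing against a 2-fold difference (limma's treat) left 371 genes toward SZ and 88 toward RZ. At 4-fold, 231 and 35 genes passed. With RZ arrays 3 and 4 alone, which share their animals with SZ, 718 and 241 genes passed at 2-fold and 1566 and 950 at any size. Setting array medians equal, a further quantile normalization and cyclic loess moved the median of all genes to -0.04, -0.02 and 0.02.

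The replicate numbers of SZ and RZ mark shared animals for number 4 only. Same-numbered SZ and RZ arrays had deviations from their zone means that correlated at -0.07, 0.10, -0.55 and -0.27, and arrays that share an animal under different numbers (SZ 1 and 2 with RZ 3, SZ 3 with RZ 4) at 0.02, -0.34 and 0.30. With a replicate block the counts were 703 and 250 at 2-fold and 1919 and 1533 at any size, and with pairs of animals as a random block (estimated correlation -0.14) they were 705, 256, 2023 and 1723.

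Of the genes named as passing, Acta1, Ccn5, Cox4i2, Dut, Igf1r, Igf2, Myl11, Prelp, Rfc5, Smad9 and Tyms lost their call with RZ arrays 3 and 4 alone, and no other gene named as passing lost it under any alternative but treat. Without SZ array 4, the median changed sign for 8 of the gene lists. Among these, the Wnt antagonist median fell below zero (-0.11) and the medians of the mitosis and oxidative phosphorylation lists rose above zero (0.01 and 0.09).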
